A study of Mus musculus with 9 samples.

Results

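The genes described here are 9 components of steroid hormone signalling in mouse skeletal muscle: the glucocorticoid receptor gene Nr3c1, the receptor co-chaperone genes Fkbp5 and Fkbp4, the steroid 5-alpha-reductase family genes Srd5a1 and Srd5a3, the nuclear receptor coactivator genes Ncoa1, Ncoa2 and Ncoa4, and the steroid-response gene Tsc22d3. They were chosen by gene symbol, with earlier results of these data known. All 9 were found in both deposited expression tables, which together list 14971 genes. RNA had been taken from the tibialis anterior, a fast muscle of the lower leg, of C57BL/6J mice, with 3 libraries for each of 3 groups. One group was labelled control (its table columns are named sham), one was orchidectomised (ORX, surgical removal of the testes), and one was orchidectomised and given dihydrotestosterone (ORX+DHT). The muscles were collected 4 weeks after treatment; the dose and route of dihydrotestosterone and the age of the animals were not given in the sources used here. The libraries are named as biological replicates, without stating whether each came from 1 animal, so p-values measure the spread between these libraries.

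Steroid hormones act through nuclear receptors. Some of these, such as the glucocorticoid receptor, are held in the cytoplasm by Hsp90 and its partners before hormone binds. A pair of related immunophilins takes part in that complex: FKBP52, encoded by Fkbp4, favours hormone binding and transport to the nucleus, whereas FKBP51, encoded by Fkbp5, lowers the hormone affinity of the glucocorticoid receptor and is itself a well-known target of steroid receptors. Bound receptors recruit coactivators of the p160 family, to which Ncoa1 and Ncoa2 belong. Dihydrotestosterone is the potent androgen that 5-alpha-reductases make from testosterone, and it is not a substrate of those enzymes. In muscle, androgens are known for supporting mass and glucocorticoids for promoting wasting.

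Promoter sequence is shown for Fkbp5 and Tsc22d3, the genes of the set with the smallest adjusted p-values below, and for Sgk1, a glucocorticoid-induced kinase gene that serves as a reference because its promoter held a complete receptor element. The windows come from RefSeq on GRCm38.p6 and reach from 250 bases before to 50 bases after each annotated start; 7 of the 9 genes had at least 1 window, and 11 windows in all. The search used the palindromic element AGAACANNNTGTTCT and its single arm AGAACA, on both strands, and any full element also counts as an arm. In capitals are the matches, read on the gene's strand, where the arm can appear as TGTTCT. The Fkbp5 stretch is the 250 bases before a start on the minus strand, chr17:28486150-28486399, which lies inside the gene and holds no match. The Tsc22d3 stretch, from 250 to 151 bases before the start farthest upstream, is chrX:140600673-140600772 on the minus strand and holds 1 arm. The Sgk1 stretch, the same distance from one of its starts, is chr10:21993640-21993739 on the plus strand.
Fkbp5: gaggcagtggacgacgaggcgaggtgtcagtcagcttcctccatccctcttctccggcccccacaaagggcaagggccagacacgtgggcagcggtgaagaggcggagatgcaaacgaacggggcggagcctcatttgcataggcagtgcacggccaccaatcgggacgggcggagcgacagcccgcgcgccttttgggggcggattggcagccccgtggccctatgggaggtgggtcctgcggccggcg
Tsc22d3: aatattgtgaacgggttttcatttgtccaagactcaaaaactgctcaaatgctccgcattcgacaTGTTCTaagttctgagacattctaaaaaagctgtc
Sgk1: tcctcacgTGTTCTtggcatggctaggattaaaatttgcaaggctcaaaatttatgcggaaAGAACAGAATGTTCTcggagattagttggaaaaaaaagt
The full element was in 3 of 32851 promoter windows (0.00913%) and in a window of none of the 7 genes that had one. The arm was in 6233 windows (19.0%) and in 5 of the 11 windows of the set. Those 5 belonged to 3 genes, Ncoa1, Ncoa4 and Tsc22d3, and overlapping windows of Ncoa4 shared an arm. Among the 70 genes of the related lists used below that had a window, 1, Sgk1, held the full element. These matches describe letters in the windows only, and expression was counted per gene, so the starts of Tsc22d3 and Sgk1 were not told apart.

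The libraries held 1340209 to 1682235 reads over the listed genes, with 12398 to 13000 genes detected per library. The values below are normalised read counts, scaled so that all 9 libraries can be read side by side. The ORX libraries were the same in both deposited tables, so that every comparison with ORX used the same 3 libraries. All 7 skeletal muscle fibre markers were found; Acta1 and Ckm averaged 25700 and 4530 RPKM (reads scaled by exon length and by the library total). The first control library stood apart: leaving it out raised the number of genes that passed the test between ORX and control from 5 to 51, and between ORX+DHT and control from 3 to 66. A gene was tested where its mean was at least 10 normalised counts, and was called at a Benjamini-Hochberg adjusted p under 0.05 over all genes tested with limma. Of the set, 7 genes met this minimum, and Srd5a1 and Srd5a3 did not.

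Per kilobase of exon, which allows genes to be compared with each other, the set spanned a wide range of levels. Fkbp4 averaged 66.5 RPKM over the 9 libraries (63.9 to 71.0) and Tsc22d3 averaged 51.2 (39.4 to 64.6), and the ranges of these highest members overlapped. Nr3c1 averaged 14.0 (8.45 to 17.6), apart from the genes above and below it. Ncoa1 at 5.36 (3.83 to 7.19) and Fkbp5 at 5.0 (1.66 to 7.86) overlapped, as did Fkbp5 and the next gene, Ncoa2, at 1.93 (1.24 to 2.79). Ncoa2 in turn overlapped Ncoa4 at 1.45 (0.956 to 2.37). The 5-alpha-reductase family genes closed the order, with Srd5a3 at 0.547 (0.286 to 0.745) overlapping Srd5a1 at 0.209 (0 to 0.476). The plot of levels per length shows the group means of Fkbp5 at 5.02 in control, 2.34 in ORX and 7.65 with ORX+DHT, beside those of its neighbour Ncoa1 at 4.95, 4.77 and 6.35. In control these neighbours differed by less than their spread (SD 1.12 and 1.07).

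**Figure D1:**
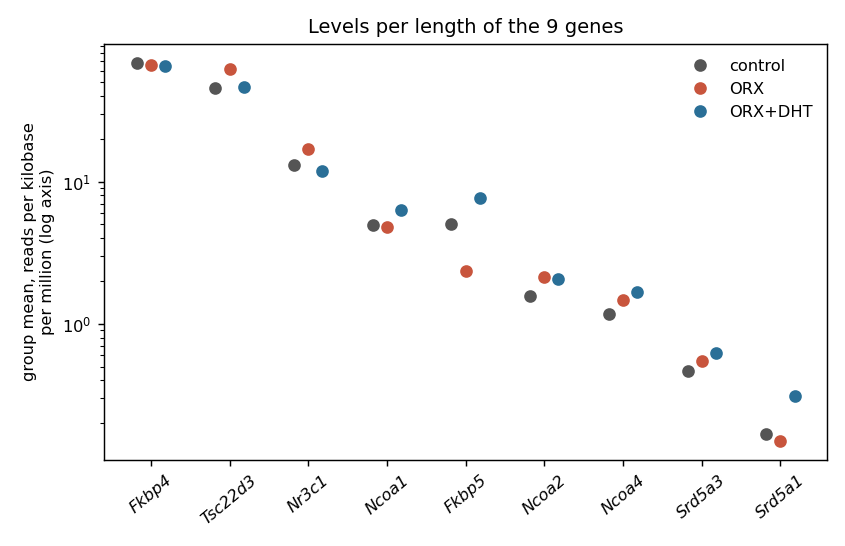
Group mean of each gene in RPKM on a log axis, with 1 point for each of the 3 groups of 3 libraries, genes ordered by their mean over all libraries. Fkbp4 and Tsc22d3 are highest and Srd5a1 lowest, and the 3 points of Fkbp5 lie farthest apart among the genes above 1 RPKM.

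Fkbp5 (ENSMUSG00000024222, chromosome 17, 28399094 to 28517527 on the minus strand of GRCm38) encodes the co-chaperone that dampens glucocorticoid receptor signalling, and it was the gene of the set that differed most between groups. Its normalised counts were 74.9, 89.6 and 57.6 in control, 28.5, 22.2 and 42.2 in ORX, and 102.3, 107.3 and 110.7 in the ORX+DHT group. Every ORX library lay below every control library, and every ORX+DHT library lay above both other groups. The group means were 74.0 ± 16.0, 30.9 ± 10.2 and 106.8 ± 4.19 (SD, n = 3). Fkbp5 rose in ORX+DHT versus ORX by 1.80 on the log2 scale (SE 0.19, 95% interval 1.40 to 2.21, 3.48-fold), with an adjusted p of 8.03e-06 in limma, and it passed the test in all 18 alternative settings tried. In ORX versus control the log2 difference was -1.26 (SE 0.26, 95% interval -1.82 to -0.69), and it did not pass the correction (limma unadjusted p 0.000443, adjusted p 0.182). It did pass there in 3 of 18 alternatives: with all 9 libraries in 1 fit (adjusted p 0.0289 in limma), without the first control library (0.0489) and in DESeq2 on the recovered reads (0.0274). ORX+DHT lay 0.54 above control on the log2 scale (SE 0.19, 95% interval 0.13 to 0.95, limma adjusted p 0.736), which did not pass.

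Fkbp4 (ENSMUSG00000030357, chromosome 6, 128429735 to 128438677, minus strand) encodes the partner co-chaperone that favours receptor activity. Its normalised counts were 332.1, 294.1 and 267.2 in control, 260.1, 260.1 and 253.1 in ORX, and 263.5, 263.0 and 280.6 in the ORX+DHT group. The ORX libraries were the lowest in each comparison and overlapped neither other group, but the gaps were small. The log2 difference was -0.20 in ORX versus control (95% interval -0.52 to 0.11, limma adjusted p 0.775) and 0.06 in ORX+DHT versus ORX (-0.13 to 0.25, adjusted p 0.824). Neither passed, and in both comparisons the interval of Fkbp4 did not overlap that of Fkbp5. Per length, the Fkbp5 level was 0.0734 ± 0.0144 of the Fkbp4 level in control, 0.0356 ± 0.0123 in ORX and 0.117 ± 0.00297 in the ORX+DHT group (SD, n = 3). The libraries of the 3 groups did not overlap in this ratio, which ran from 0.0637 to 0.0899, from 0.0252 to 0.0492 and from 0.115 to 0.12.

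**Figure D2:**
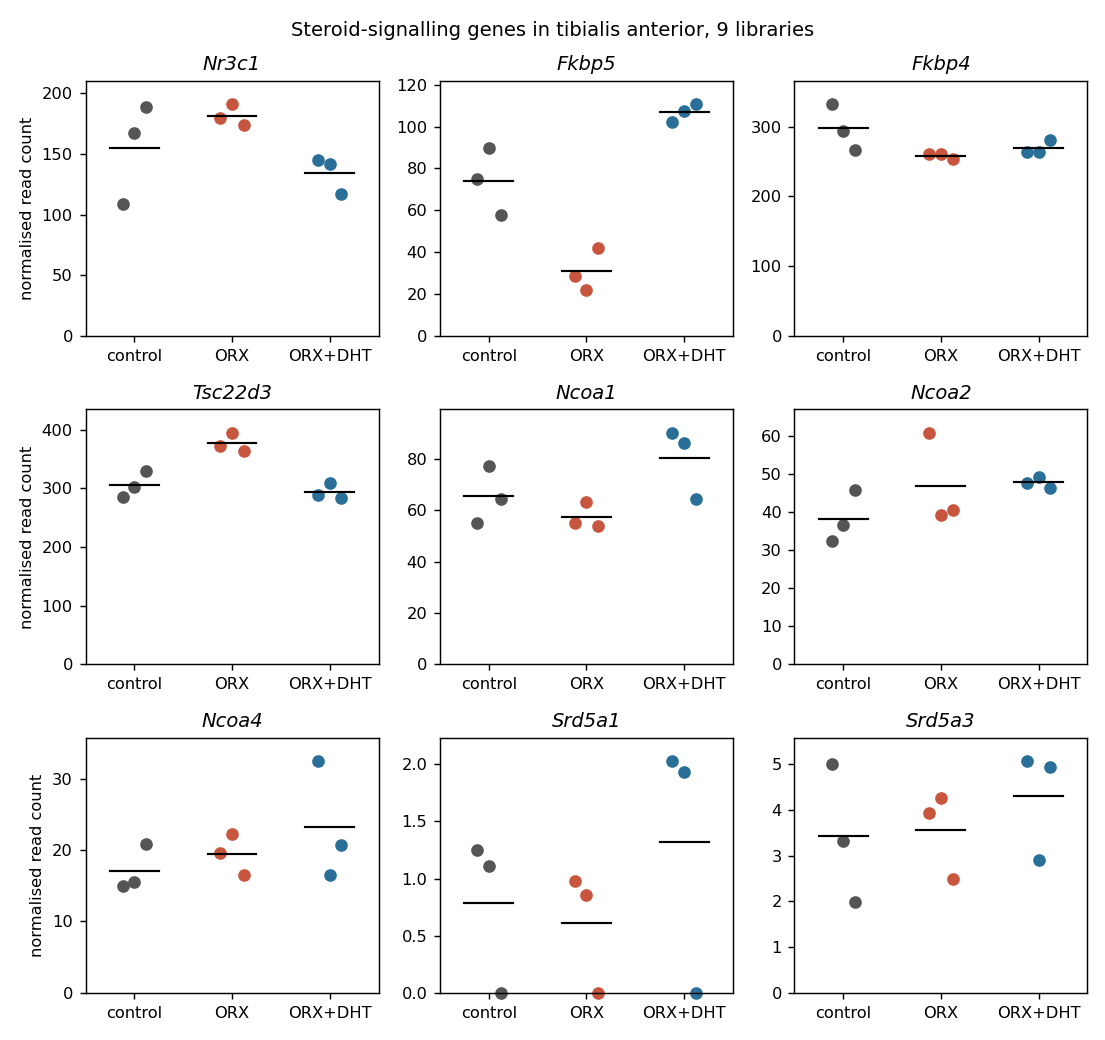
Normalised read count of each of the 9 genes in every library (points) with the group mean (bar), in control, ORX and ORX+DHT, on a linear axis from 0. Fkbp5 is lowest in the 3 ORX libraries and highest in the 3 ORX+DHT libraries, while Tsc22d3 is highest in the 3 ORX libraries.

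Tsc22d3 (ENSMUSG00000031431, chromosome X, 140539528 to 140600659, minus strand) encodes GILZ, a leucine zipper protein known for its induction by glucocorticoids. It showed the opposite order to Fkbp5. Its normalised counts were 285.9, 303 and 329.7 in control, 373, 394.9 and 364 in ORX, and 288.8, 309.4 and 283.6 in the ORX+DHT group. All 3 ORX libraries lay above all 6 others, while control and ORX+DHT overlapped. Tsc22d3 fell in ORX+DHT versus ORX by 0.36 on the log2 scale (SE 0.09, 95% interval -0.55 to -0.17, 0.779-fold; limma adjusted p 0.0247). In ORX versus control its log2 difference was 0.30 (SE 0.14, 95% interval 0.00 to 0.60, limma unadjusted p 0.048, adjusted p 0.69), which did not pass. The log2 difference between ORX+DHT and control was -0.06 (95% interval -0.35 to 0.24). The call in ORX+DHT versus ORX was made in 13 of 18 alternatives, and was lost with all 9 libraries in 1 limma fit (adjusted p 0.23), in DESeq2 (0.0853) and without the second ORX (0.143), the first ORX+DHT (0.112) or the third ORX+DHT library (0.101).

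Nr3c1 (ENSMUSG00000024431, chromosome 18, 39410545 to 39519421, minus strand) encodes the glucocorticoid receptor, through which Tsc22d3 and Fkbp5 are known to be induced. Its normalised counts were 108.6, 167 and 188.7 in control, 179.6, 191 and 173.7 in ORX, and 144.9, 142.1 and 116.6 in the ORX+DHT group. The ORX+DHT libraries all lay below the ORX libraries, whereas the control libraries ran from below the ORX+DHT range into the ORX range, with the first control library the lowest of the 9. Nr3c1 fell in ORX+DHT versus ORX by 0.43 on the log2 scale (SE 0.11, 95% interval -0.67 to -0.19, 0.742-fold; limma adjusted p 0.038). This was the least firm of the 3 calls: it was made in 11 of 18 alternatives. It was lost with all 9 libraries in 1 fit (limma adjusted p 0.476), in DESeq2 (0.14) and on leaving out any ORX or ORX+DHT library other than the third ORX one (0.0591 to 0.173). The log2 difference was 0.26 in ORX versus control (95% interval -0.17 to 0.70, limma adjusted p 0.791) and -0.17 in ORX+DHT versus control (-0.63 to 0.29, adjusted p 0.856). Neither passed, and both rested on the control libraries: without the first they were 0.03 and -0.40, and without the third 0.42 and -0.01.

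The summed markers of connective tissue cells were also highest in the ORX libraries, as Tsc22d3 was, though not each marker. Dcn, Pdgfra, Col3a1, Scx and Tnmd overlapped between all groups, and Thbs4 overlapped between ORX and control. Only Col1a1, Col1a2, Lum and Fmod were higher in every ORX library than in all others. The summed normalised count of 6 fibroblast markers was 1936 to 3926 in control, 4306 to 5651 in ORX and 2382 to 3307 in the ORX+DHT group, highest in the 3 ORX libraries. The 4 tendon markers summed to 328.4 to 428.3, 442.7 to 730.4 and 307 to 375.5, and the 5 Schwann cell markers to 106.1 to 113.2, 148.4 to 173.7 and 99.3 to 145. In ORX+DHT versus ORX, 3 of 6 fibroblast markers passed the test, all lower (Col1a1, Col1a2 and Lum), as did 1 tendon marker, also lower, and 2 of 7 muscle fibre markers, higher. The 7 muscle fibre markers summed to 287900 to 325100 in control, 247600 to 258900 in ORX and 264800 to 285700 in the ORX+DHT group. This sum was lowest in ORX, as were the means of Acta1, Ckm, Myh1, Mylpf and Tnnt3. Atp2a1 instead had its highest mean in ORX (45060, 49990 and 47130 in control, ORX and ORX+DHT). Myh4 had its lowest mean in ORX+DHT (92580, 80660 and 76010). The 5 endothelial markers summed to 746.6 to 883.4, 800.7 to 910.9 and 936.3 to 999, with the sum highest in ORX+DHT. Of these markers only Cdh5 lay higher in every ORX+DHT library than in all others. Pecam1, Kdr and Tie1 overlapped, and Egfl7 had its highest mean in control (111.1, 93.6 and 96.5). No endothelial marker passed the test in any comparison. The summed leukocyte, adipocyte, smooth muscle, satellite cell and immediate early markers overlapped between ORX and ORX+DHT, although the immediate early gene Jun passed the test there, higher in ORX+DHT (limma adjusted p 0.0231). Of the connective tissue, nerve and fibre lists the defining Schwann cell factor gene Sox10 was at 0 in at least 1 library, and no fibroblast, tendon or fibre marker was. The part of these markers in the differences of Tsc22d3, Nr3c1 and Fkbp5 was not tested. In whole muscle, fewer cells of a type and less RNA per cell cannot be told apart.

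None of the coactivator genes passed the test as reported. Ncoa1 (ENSMUSG00000020647, chromosome 12, 4247362 to 4477182, minus strand) encodes SRC-1, a p160 coactivator, and had normalised counts of 54.9, 77.4 and 64.6 in control, 55.0, 63.1 and 53.8 in ORX, and 90.2, 86.0 and 64.2 in the ORX+DHT group. The ORX+DHT libraries all lay above the ORX libraries, the third by a small margin, and overlapped control. In RPKM they overlapped the ORX libraries too (5.03 to 7.19 against 4.51 to 5.22). The log2 difference of Ncoa1 in ORX+DHT versus ORX was 0.47 (SE 0.16, 95% interval 0.14 to 0.80), which did not pass the correction (limma unadjusted p 0.00828, adjusted p 0.126). It passed without the third ORX+DHT library (0.62, limma adjusted p 0.0405). Its log2 difference in ORX versus control was -0.18 (95% interval -0.60 to 0.23, limma adjusted p 0.829). Ncoa1 shares 68 exon bases (0.793%) with the antisense gene 4921501I09Rik, and the strand setting of the counting was not given in the sources used here.

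Ncoa2 (ENSMUSG00000005886, chromosome 1, 13139105 to 13374083, minus strand) encodes another p160 coactivator, SRC-2. Its normalised counts were 32.5, 36.5 and 45.7 in control, 60.9, 39.2 and 40.5 in ORX, and 47.6, 49.3 and 46.4 in the ORX+DHT group. The ORX libraries overlapped both other groups, and ORX+DHT lay above control without overlap. No log2 difference of Ncoa2 passed: it was 0.27 in ORX versus control (95% interval -0.24 to 0.78, limma adjusted p 0.81), 0.06 in ORX+DHT versus ORX (-0.33 to 0.44, adjusted p 0.933) and 0.33 in ORX+DHT versus control (-0.11 to 0.76, adjusted p 0.742).

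Ncoa4 (ENSMUSG00000056234, chromosome 14, 32159865 to 32179855, plus strand) was described as a nuclear receptor coactivator and is also the cargo receptor that delivers ferritin for breakdown. Its normalised counts were 15.0, 15.5 and 20.9 in control, 19.6, 22.2 and 16.5 in ORX, and 32.4, 16.4 and 20.8 in the ORX+DHT group. The groups overlapped, and the first ORX+DHT library was the highest. The log2 difference was 0.18 in ORX versus control (95% interval -0.40 to 0.76, limma adjusted p 0.889) and 0.20 in ORX+DHT versus ORX (-0.36 to 0.76, adjusted p 0.799). At 15.0 to 32.4 normalised counts the intervals leave room for changes as large as those of the called genes Nr3c1 and Tsc22d3.

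The 5-alpha-reductase family genes were near the lower limit of detection. Srd5a1 (ENSMUSG00000021594, chromosome 13, 69573449 to 69611442, minus strand) encodes a 5-alpha-reductase that makes dihydrotestosterone and had 1, 1 and 0 reads in control, 1, 1 and 0 in ORX, and 2, 2 and 0 in the ORX+DHT group. A library with 0 reads allows up to 3 reads by counting error alone, which is 2.48 to 2.98 normalised counts in the libraries at 0, so no difference was detectable at this depth. Srd5a1 also shares 476 of its 2909 exon bases (16.4%) with Gm17108 on the same strand. Srd5a3 (ENSMUSG00000029233, chromosome 5, 76140271 to 76155504, plus strand) carries the family name and is best known as a polyprenol reductase needed for protein glycosylation. It had 4, 3 and 2 reads in control, 4, 5 and 3 in ORX, and 5, 3 and 5 in the ORX+DHT group, with mean normalised counts of 3.43 ± 1.51, 3.56 ± 0.947 and 4.30 ± 1.22 (SD, n = 3). These differences were smaller than the spread between libraries, and neither gene was tested.

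Across the set, the 3 comparisons gave different numbers of calls. The set and the lists below were chosen with earlier results of these data known. The shares over all genes printed beside them are therefore a description and no test of the set or the lists. In ORX+DHT versus ORX, 3 of the 7 genes tested passed, 1 higher (Fkbp5) and 2 lower (Tsc22d3 and Nr3c1), where 4.08% of all 8770 genes tested passed. For 5 of 7 genes the groups had no overlap in normalised counts, against 19.5% of all genes. In RPKM, Fkbp4 and Ncoa1 of these 5 did overlap. In ORX versus control, limma called 0 of 7, edgeR 0 and DESeq2 1 (Fkbp5), where DESeq2 called 28 of all 8631 genes. There were 2 of 7 genes at an unadjusted limma p under 0.05 (622 of 8631 over all genes). In limma, 0.0579% of all 8631 genes passed there, and 3 of 7 genes (Fkbp5, Tsc22d3 and Fkbp4) had no overlap, against 14.3% of all genes. Fkbp4 did overlap there in RPKM. Between ORX+DHT and control, 0 of 7 passed in limma, edgeR and DESeq2, with 1 gene (Fkbp5) at an unadjusted limma p under 0.05 (557 of 8595 over all genes). There, 0.0349% of all 8595 genes passed, and 2 of 7 genes (Fkbp5 and Ncoa2) did not overlap, against 14.0% of all genes. The median log2 difference of the 7 genes was 0.18, 0.06 and 0.28 in ORX versus control, ORX+DHT versus ORX and ORX+DHT versus control, beside -0.01, 0.01 and -0.01 over all genes tested. The comparisons share libraries, and their values are set side by side without a test between them.

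**Figure D3:**
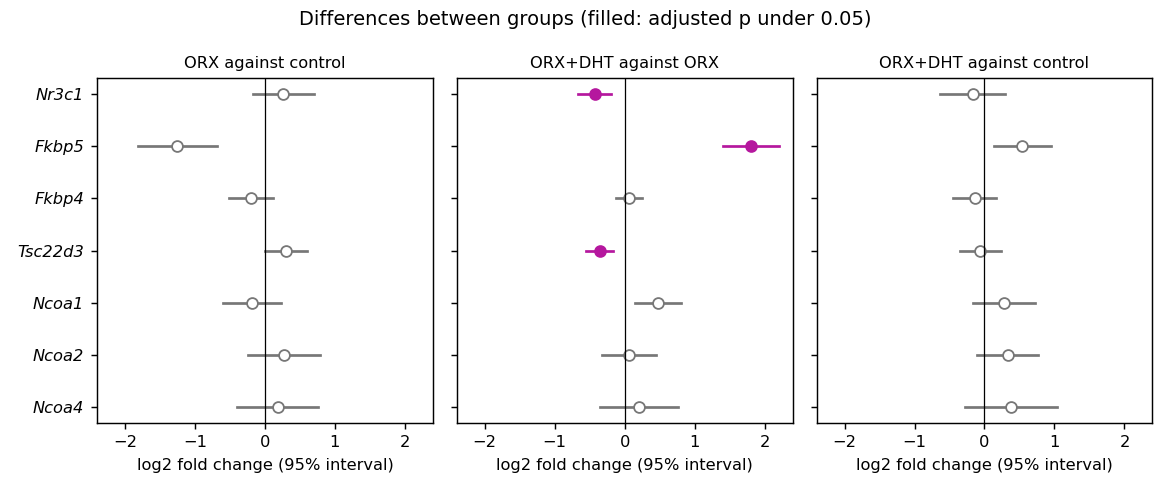
Log2 fold change (points) with its 95% interval (lines) of the 7 tested genes in the 3 comparisons; filled points have an adjusted p under 0.05 in limma. Filled points occur in the comparison of ORX+DHT with ORX for Fkbp5 at 1.80, Tsc22d3 at -0.36 and Nr3c1 at -0.43.

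The rest of the pathway was read from 5 lists holding 94 other genes, of which 71 were tested in ORX versus control, 71 in ORX+DHT versus ORX and 70 in ORX+DHT versus control. Between ORX+DHT and ORX, 3 of 71 passed, a share near the 4.08% of all genes called there, and the 3 were from the glucocorticoid-induced list. In ORX versus control 0 of 71 passed in limma, 0 in edgeR and 1 (Sesn1) in DESeq2, with 7 at an unadjusted limma p under 0.05 (622 of 8631 over all genes). Between ORX+DHT and control 0 of 70 passed in limma, edgeR and DESeq2, with 6 at an unadjusted limma p under 0.05 (557 of 8595 over all genes).

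Of 25 genes known to be induced by glucocorticoids, 23 were tested, and in ORX+DHT versus ORX 1 rose and 2 fell, where 4.08% of all genes passed. Without the first ORX+DHT library 2 were called higher (Zbtb16 and Trim63) and 1 lower (Sesn1). The median log2 difference of the 23 was 0.10 in ORX versus control, -0.04 in ORX+DHT versus ORX and 0.01 in ORX+DHT versus control, beside all-gene medians of -0.01, 0.01 and -0.01. The list therefore did not move one way: Zbtb16 went with Fkbp5, and Sesn1 and Glul went with Tsc22d3. Zbtb16, which encodes the transcription factor PLZF, had normalised counts of 91.2, 155.9 and 137.1 in control, 106.0, 108.3 and 103.4 in ORX, and 188.5, 234.0 and 271.7 in the ORX+DHT group. The ORX+DHT libraries were the highest 3 of the 9, while ORX lay within the control range. Zbtb16 rose by 1.11 on the log2 scale in ORX+DHT versus ORX (SE 0.13, limma adjusted p 1.74e-05), and the call was made in 18 of 18 alternatives. Versus control, Zbtb16 passed in ORX+DHT in 1 of 18 alternatives, without the first control library (limma adjusted p 0.0429).

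Sesn1, which encodes a sestrin that restrains mTORC1 when leucine is scarce, had normalised counts of 41.2, 25.4 and 32.8 in control, 71.7, 73.4 and 85.2 in ORX, and 29.4, 35.8 and 43.5 in the ORX+DHT group. The ORX libraries all lay above the other 6, and control and ORX+DHT overlapped. Sesn1 fell by 1.08 on the log2 scale in ORX+DHT versus ORX (SE 0.17, limma adjusted p 0.000678; called in 18 of 18 alternatives). Its log2 difference in ORX versus control was 1.21 (limma adjusted p 0.084), which did not pass but did in 5 of 18 alternatives. Glul, the gene of glutamine synthetase, had 169.8, 256.5 and 286 normalised counts in control, 288.6, 313 and 399.5 in ORX, and 214.8, 216.6 and 272.7 in the ORX+DHT group. The ORX libraries again lay above the other 6. Glul fell by 0.50 on the log2 scale in ORX+DHT versus ORX (SE 0.12, limma adjusted p 0.0251), a call made in 13 of 18 alternatives and lost with all 9 libraries in 1 fit (adjusted p 0.362). Sgk1, whose promoter is printed above, had means of 417 ± 49.3, 406 ± 58.1 and 449 ± 25.8 (SD, n = 3) in control, ORX and ORX+DHT, and its log2 difference of 0.15 in ORX+DHT versus ORX did not pass (limma adjusted p 0.545).

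**Figure D4:**
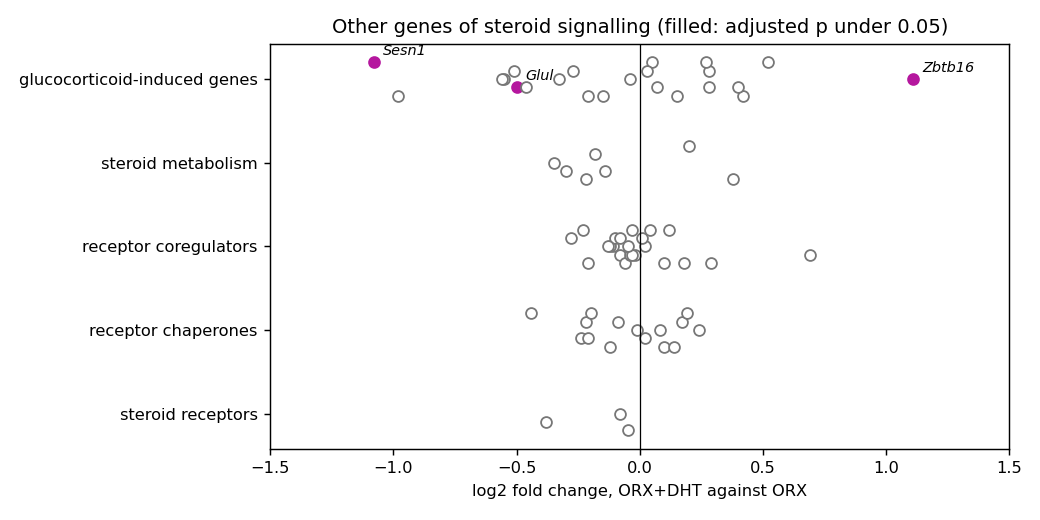
Log2 fold change in ORX+DHT versus ORX of each tested gene of the 5 related lists (1 point per gene; filled points have an adjusted p under 0.05 in limma). Zbtb16 at 1.11, Sesn1 at -1.08 and Glul at -0.50 are the 3 filled points, all in the row of glucocorticoid-induced genes.

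In the other 4 lists no gene passed in any of the 3 comparisons as reported, and the coregulator gene Nrip1, named after its values were seen, passed in ORX+DHT versus ORX without the third ORX library, higher. Of 5 further steroid receptor genes, 3 were in the tables and tested, with median log2 differences of 0.07 in ORX versus control, -0.08 in ORX+DHT versus ORX and -0.31 between ORX+DHT and control. Esr1, an oestrogen receptor gene, had means of 48.1, 50.4 and 40.5 normalised counts in control, ORX and ORX+DHT. Its log2 difference in ORX+DHT versus ORX was -0.38 (limma adjusted p 0.5).

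The chaperone list had 15 genes tested of 16, with median log2 differences of -0.09, -0.01 and -0.17 in ORX versus control, ORX+DHT versus ORX and ORX+DHT versus control. Its most abundant genes were Hsp90ab1, which encodes a form of Hsp90 and had means of 1954 ± 302, 1974 ± 150 and 2003 ± 85.9 in control, ORX and ORX+DHT, and the Hsc70 gene Hspa8, at 958 ± 200, 781 ± 58.8 and 880 ± 71.4 (SD, n = 3). The coregulator list had 23 of 25 tested, with medians of 0.08, -0.04 and 0.11. Ncor1, a corepressor gene, had means of 226 ± 21.5, 210 ± 15.6 and 216 ± 6.46 (SD, n = 3), and its log2 difference of 0.04 in ORX+DHT versus ORX did not pass (limma adjusted p 0.889). Of 23 steroid metabolism genes, 11 were in at least 1 table and 7 were tested in each comparison with ORX, with medians of 0.22 in ORX versus control and -0.18 in ORX+DHT versus ORX. Hsd17b4, a peroxisomal beta-oxidation enzyme gene, averaged 118 ± 16.1, 107 ± 24.9 and 121 ± 11.8. H6pd, which supplies NADPH for cortisol and corticosterone regeneration in the endoplasmic reticulum, averaged 69.4 ± 16.9, 82.2 ± 7.67 and 106.8 ± 2.48 (SD, n = 3), and its log2 difference of 0.38 in ORX+DHT versus ORX did not pass (limma adjusted p 0.119).

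The genes whose pattern was most like that of the called genes were found by Pearson's r of log2 values over the 9 libraries, among 3794 genes with a mean of at least 50 normalised counts. For Fkbp5 they were Cdk19 (r = 0.975), Rabgef1 (0.967), Tbx15 (0.967), Rab12 (0.964) and Ppp2r2a (0.96). For Tsc22d3 they were Aebp1 (0.949), Mllt3 (0.937), Stag2 (0.927), Rab11a (0.924) and Lpp (0.912). For Nr3c1 they were Phldb1 (0.953), Abcc4 (0.933), Mib1 (0.929), Kansl3 (0.917) and Mmut (0.914). Within the set, r over the same libraries was -0.943 between Fkbp5 and Tsc22d3, 0.809 between Nr3c1 and Tsc22d3, and -0.681 between Fkbp5 and Nr3c1. These are descriptions: the 9 points share groups and libraries, and differences between the groups enter every r.

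**Figure D5:**
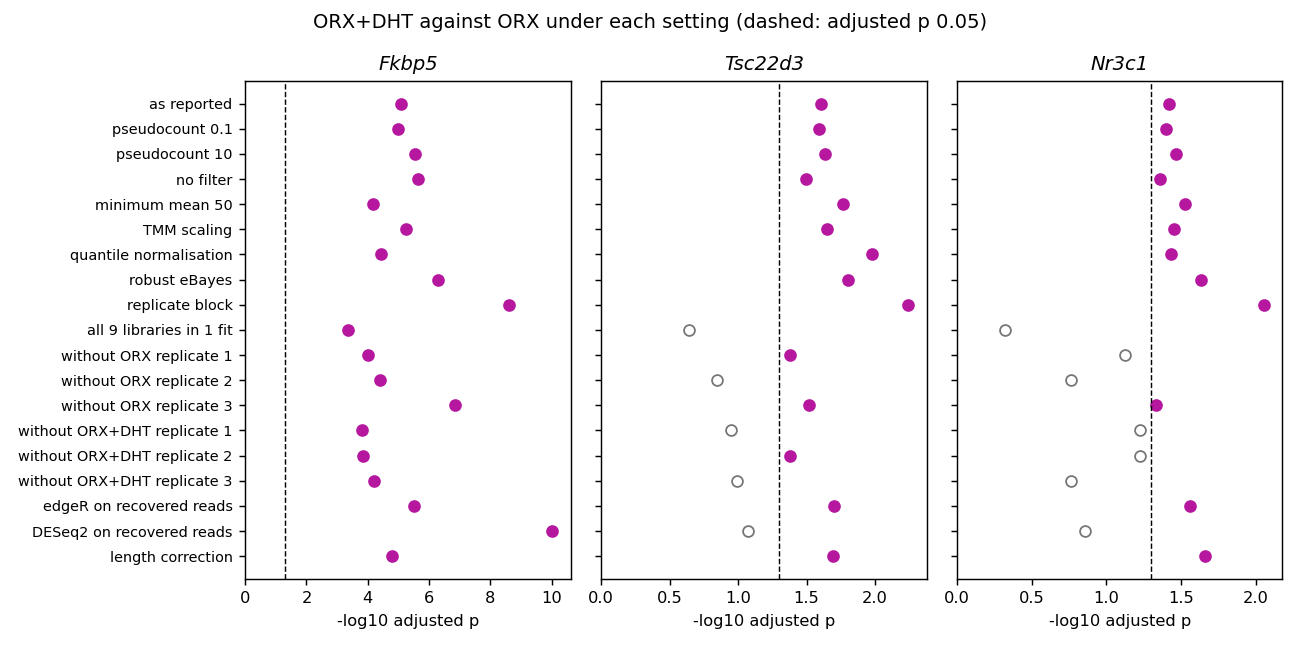
Minus log10 of the adjusted p of Fkbp5, Tsc22d3 and Nr3c1 in ORX+DHT versus ORX, as reported and under 18 alternative settings (rows); filled points lie past the dashed line at an adjusted p of 0.05. Fkbp5 is past the line in all 18 alternatives, Tsc22d3 in 13 and Nr3c1 in 11.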

How the data were processed

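Polyadenylated RNA was sequenced from directional libraries of tibialis anterior muscle, per the labels' protocols. The submitters' processing notes name GRCm38, Trim Galore 0.6.7, HISAT2 2.2.1, featureCounts 2.0.1 and DESeq2 1.36.0, without roles. The authors deposited size-factor-normalised count values per gene (a signal scale) in 2 tables, scaled separately: control with ORX, and ORX with ORX+DHT. Dividing each column by its smallest step returned whole reads for 100.0% of values (tolerance 0.01). The step of the third control library (0.9922) was close to 1, so there the return to reads is less certain. For values set across the tables, 14300 shared genes were rescaled by the median of ratios.

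Each comparison was fitted with limma 3.58.1 (R 4.3.3, trended eBayes) on log2(value + 1), over genes with a mean of at least 10, so fold changes of low genes are understated. ORX+DHT versus control used the rescaled values. Levels per length used the exon union of GENCODE M21. Alternatives included the pseudocount, filter, scaling, a replicate block, each library left out, and edgeR 4.0.16 and DESeq2 1.42.0 on recovered reads; a gene-length correction was chosen after seeing the data. The fits were tested on simulated data. Same-numbered libraries deviated together with r of -0.165 to 0.151 over 9 pairs, and numbers were not treated as pairs. For ORX with ORX+DHT, the 3 same-numbered pairs had r of 0.061 to 0.151. Differently numbered pairs of these groups had r of -0.087 to 0.025, all lower. Whether these libraries were paired is not known, and the replicate block is given as an alternative. Members and lists were chosen with earlier results of these data known. Named genes are all 9 members, called genes of each list, the 2 most abundant genes of lists without a call, and the 5 genes most like each called member; Sgk1 was named for its promoter after its values were seen. Some genes that this rule names are not reported here.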

Additional observations from a re-analysis of the deposited data

How the results depend on the processing

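Each comparison was recomputed under 18 alternatives. Of 426 single values, 402 kept their direction and side of the threshold, 17 lost the threshold, 4 gained it and 3 reversed. Most of the 426 were of differences not called as reported, which counted as kept when they stayed uncalled. The losses were all of calls in ORX+DHT versus ORX: 7 of Nr3c1, 5 of Tsc22d3 and 5 of Glul, each over 18 alternatives. The members called in ORX versus control went from 0 to 1 (Fkbp5) with all 9 libraries in 1 fit and in DESeq2, and ranged from 0 to 1 when 1 library was left out. In ORX+DHT versus ORX they went from 3 to 1 with all 9 libraries in 1 fit and in DESeq2, and ranged from 1 to 3 when 1 library was left out: 1 without ORX replicate 2 or ORX+DHT replicate 1, and 2 without ORX replicate 1 or ORX+DHT replicates 2 or 3. Without ORX+DHT replicate 3 those 2 were Fkbp5 and Ncoa1, and the calls of Tsc22d3 and Nr3c1 were lost. The members called were 0 throughout for ORX+DHT versus control. With the replicate block the members called were 0, 3 and 0 in ORX versus control, ORX+DHT versus ORX and ORX+DHT versus control, as without it, and all genes called in ORX+DHT versus ORX went from 358 to 571. Of the glucocorticoid-induced list, the block gave 5 calls in place of 3 in ORX+DHT versus ORX (2 higher and 3 lower, with Pdk4 and Trim63 added), and of the coregulators 1 in place of 0 (Nrip1). The reversals were of small differences in ORX+DHT versus ORX: Ncoa2 became -0.05 without ORX replicate 2 and -0.03 without ORX replicate 3 (range -0.05 to 0.26 over the libraries left out), and Ncoa4 became -0.06 without ORX+DHT replicate 1 (range -0.06 to 0.41). The cause of these changes was not tested.

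Over all genes, the counts called in ORX versus control, ORX+DHT versus ORX and ORX+DHT versus control were 5, 358 and 3 as reported, 23, 124 and 11 with all 9 libraries in 1 fit, 28, 221 and 13 in DESeq2, 6, 366 and 4 in edgeR, and 19, 395 and 14 with the length correction. Leaving out control replicate 1 gave 51 in ORX versus control and 66 in ORX+DHT versus control, and leaving out control replicate 3 gave 21 and 1; leaving out ORX+DHT replicate 1 gave 223 in ORX+DHT versus ORX. With 26 to 112 reads for Fkbp5 per library and 0 to 2 for Srd5a1, depth limits the lower members most.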
